A study of Saccharomyces cerevisiae with 6 samples.

Results

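The transcripts of 40 genes that yeast cells are known to make under environmental stress or on entry into quiescence were measured in cultures with and without ethanol. The genes were listed by name: stress-inducible genes other than chaperones, storage sugar enzymes and redox enzymes. All 40 were found on the array, each through 1 probe, among 6345 features in all.

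When yeast growth is checked by heat, osmotic shock, starvation or ethanol, the transcription factors Msn2 and Msn4 enter the nucleus and switch on a broad set of genes, the environmental stress response, which protein kinase A holds down in rapidly growing cells. Chaperones, trehalose enzymes and antioxidants are its best known products. The genes described here are less studied, and whether each belongs to that response was not tested. Among their products are small hydrophilic proteins, factors of stationary phase survival, mitochondrial proteins, and inhibitors that restrain proteases, ATP synthase or signalling enzymes.

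The strain was W303-1A, a haploid MATa laboratory strain of Saccharomyces cerevisiae, and both groups carry its marker alleles, of which his3-11, 15 and leu2-3, 122 block the making of histidine and leucine, ade2-1 that of adenine, ura 3-1 that of uracil and trp1-1 that of tryptophan, while can1-100 gives resistance to canavanine. It was grown in YEPD, a rich medium, at 30 °C. There were 3 cultures with no added ethanol (0%) and 3 with 6.5% (v/v) ethanol, all started from unstressed late exponential cells. No source used here gives the time in ethanol. Each culture was hybridised on an array of its own with 2 dyes, the second dye marking pooled RNA from the 0% cultures, and for culture 1 of each group the dyes were swapped. A value is the log2 of the culture's signal over that of the pool, so a culture like the pool reads 0, and 1 unit is a factor of 2. A ratio against a pool of the same strain holds no level, so the mating type was not checked here by its markers.

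The direction of the ratio was taken as red over green, which is likely and not stated. It rests on the stress genes HSP12 and HSP26 being higher in ethanol, so the direction of the stress genes described here is not an independent result. Under the opposite reading, green over red, all signs below would turn. Both dye-swapped arrays stood apart. Once turned, the swapped 0% array correlated across features at r = −0.39 and −0.45 with the other 0% arrays, which correlated at 0.67 with each other. The swapped 6.5% array correlated at −0.06 and −0.10 with the other 6.5% arrays, which correlated at 0.85. The swapped arrays correlated at 0.42 with each other across the groups. The ratios also ran with the probe number differently on each array, and results are given with and without the swapped arrays and with and without that trend.

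Of the 40 genes, 17 rose with ethanol and 0 fell. The members that rose were RGI1, ULI1, HOR7, TMA17, MOH1, DDR2, STF1, TMA10, RTC3, STF2, OM14, UGA2, GPG1, SIP18, HBT1, SPG1 and TFS1. They rose by between 1.21 and 3.21 log2 units, or 2.31-fold to 9.25-fold. A gene was called at an adjusted p below 0.05 (limma, Benjamini-Hochberg over all features), and by this rule 7.69% of all features rose and 10.4% fell, against 42.5% of the 40 genes higher. The median change was 0.91 over the 40 genes (quartiles 0.47 and 1.74) and 0.04 over all features (quartiles −0.57 and 0.56). The change was above 0 for 34 of the 40 genes and for 52.0% of all features. The 40 genes were chosen with earlier results of these data known, so these contrasts are not an independent test. One gene, YGP1, was lower at an unadjusted p under 0.05, and 23 were higher. Over all 6345 features 2237 had an unadjusted p under 0.05 by limma, in both directions together. The cultures were measured in bulk, so more transcript per cell and a larger share of cells with the transcript cannot be told apart.

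**Figure D1:**
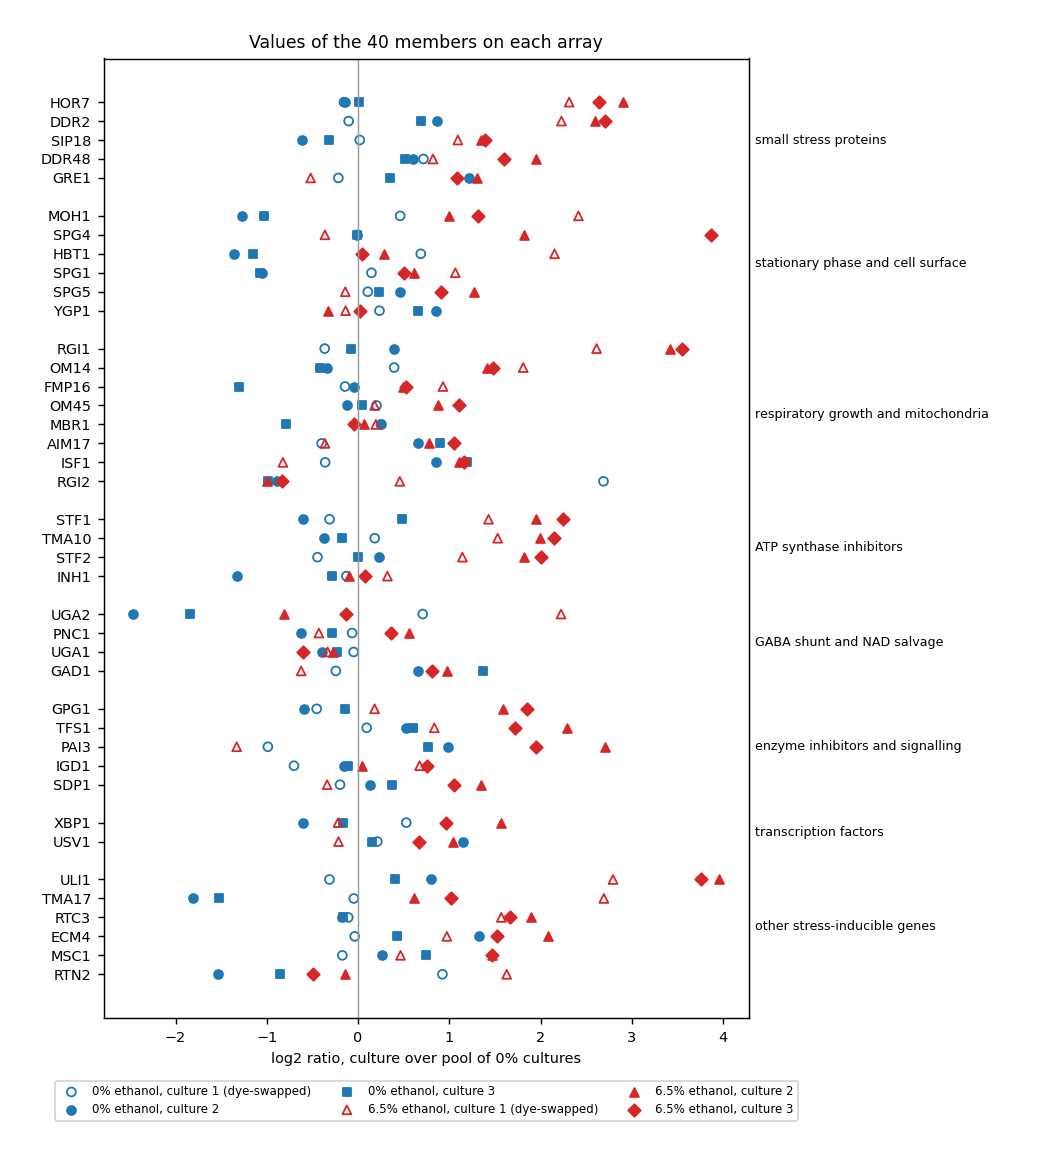
Values of the 40 genes on the 6 arrays, as log2 ratios of culture over pool, with 1 line per gene, grouped by role and ordered by change. Blue marks are 0% cultures and red marks 6.5% cultures, and open marks are the dye-swapped arrays. For RGI1 the 6.5% arrays read 2.61 to 3.55 and the 0% arrays −0.37 to 0.40, whereas for UGA2 the open and filled marks of each group lie far apart.

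These calls leaned on single arrays. Without 6.5% culture 2 none of the 40 genes was called by limma (lowest adjusted p = 0.0580), and 0.0315% of all features were higher. At an unadjusted p under 0.05, 19 of the 40 genes were higher and 0 lower, against 1552 of 6345 features in both directions together. Without 6.5% culture 3 HOR7, RGI1, TMA17 and ULI1 were called, with 0.378% of all features higher. Without 0% culture 2 there were 14 calls, with 3.17% of all features higher; FMP16 was gained, and GPG1, SPG1, TFS1 and UGA2 were lost. Without 0% culture 3 there were 14, with 4.9% of all features higher, and GPG1, SPG1 and TFS1 were lost. Without either or both swapped arrays 21 were called, the 17 and DDR48, PAI3, SPG4 and XBP1, with 8.9% of all features higher. The median change moved less, from 0.90 to 1.32 with 1 array left out. With the probe-order trend removed 17 genes were called again, 16 of them the same, with 5.58% of all features higher and 7.45% lower. Leaving out arrays after that, 22 were called without the swapped arrays (8.53% of all features higher) and 0 without 6.5% culture 2 (0.0%). Without 6.5% culture 2, 21 genes were then higher at an unadjusted p under 0.05, against 1349 of 6345 features in both directions. With culture number as a block 15 were called, with 3.94% of all features higher; GPG1 (adjusted p = 0.0577) and TFS1 (adjusted p = 0.0681) were not. Block and trend removal together left 10 (2.71% of all features higher), and arrays scaled to equal spread 9 (1.64%). Without the dye term 4 were called, with 0.583% of all features higher.

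The all-array picture depended on how groups were set side by side. For 19 of the 40 genes every 6.5% array lay above every 0% array, against 11.3% of all features. Within each dye orientation, comparing culture 1 with culture 1 and cultures 2 and 3 with cultures 2 and 3, the 6.5% arrays lay above the 0% arrays for 24 genes, against 23.8% of all features, and all 17 genes that rose were among them. HBT1 and UGA2 rose with overlapping groups, and overlapped only across orientations.

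Among the small stress proteins, HOR7, DDR2 and SIP18 rose out of 5. HOR7 and DDR2 are paralogues that code for short proteins made under osmotic and many other stresses. HOR7 read −0.15, −0.14 and 0.01 in 0% cultures 1 to 3 and 2.31, 2.90 and 2.64 in the 6.5% cultures. The 6.5% arrays were all high and close together, and the change was 2.71 ± 0.25 (SE, n = 3 per group) or 6.56-fold (adjusted p = 0.00582 by limma). DDR2 read −0.10, 0.87 and 0.69 without ethanol and 2.23, 2.60 and 2.70 with it. Its groups did not overlap, and it rose by 2.03 ± 0.25 or 4.08-fold (adjusted p = 0.00783 by limma).

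SIP18 and GRE1 are paralogues as well, and code for hydrophilins, very hydrophilic proteins linked to survival of drying and osmotic stress. SIP18 read 0.02, −0.61 and −0.32 in the 0% cultures and 1.09, 1.34 and 1.39 in the 6.5% cultures. It rose by 1.58 ± 0.28 (adjusted p = 0.0150 by limma), with groups that did not overlap. GRE1 read −0.22, 1.21 and 0.35 without ethanol and −0.52, 1.31 and 1.08 with it. The GRE1 groups overlapped, and its change of 0.18 ± 0.33 had a 95% interval of −0.61 to 0.96 as deposited, or 0.06 to 1.43 with the trend removed, without a call in either. DDR48, first known as a gene induced by DNA damage, read 0.72, 0.60 and 0.52 in the 0% cultures and 0.82, 1.95 and 1.60 in the 6.5% cultures. All 6.5% arrays of DDR48 were higher, the swapped one by little, and the change of 0.85 ± 0.32 was not called (adjusted p = 0.109 by limma). DDR48 was called without the swapped arrays, at 1.22 (adjusted p = 0.0365 by limma).

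Among genes of stationary phase and the cell surface, MOH1, HBT1 and SPG1 rose out of 6. MOH1, a relative of the yippee protein family that is linked to survival in stationary phase, read 0.46, −1.27 and −1.03 without ethanol and 2.42, 1.00 and 1.31 with it. It was 1.95 higher in the swapped pair and 2.30 higher on the other arrays, and rose by 2.19 ± 0.26 or 4.55-fold (adjusted p = 0.00727 by limma). HBT1, a target of the ubiquitin-like protein Hub1 that acts in polarised growth, read 0.69, −1.36 and −1.15 in the 0% cultures and 2.15, 0.28 and 0.04 in the 6.5% cultures. The swapped arrays of HBT1 were the high ones in both groups. Within orientations its differences were 1.47 and 1.42, and the gene rose by 1.44 ± 0.24 (adjusted p = 0.0141 by limma).

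The SPG genes were named for the need for them at high temperature in stationary phase. SPG1 read 0.15, −1.06 and −1.07 without ethanol and 1.07, 0.61 and 0.50 with it. Its groups did not overlap and it rose by 1.39 ± 0.27 (adjusted p = 0.0185 by limma). SPG4 read −0.01, −0.02 and −0.01 in the 0% cultures and −0.36, 1.81 and 3.87 in the 6.5% cultures. The 6.5% arrays of SPG4 had the widest range among the 40 genes, and its change of 1.79 ± 0.77 was not called (adjusted p = 0.151 by limma). Without the swapped arrays SPG4 was called, at 2.86 (adjusted p = 0.0317 by limma), and without 6.5% culture 3 it was at 0.89. SPG5, which acts in proteasome assembly in stationary phase, changed by 0.42 ± 0.31 and was not called.

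YGP1, a secreted glycoprotein gene known to be raised by nutrient limitation, had the lowest change of the 40. It read 0.23, 0.86 and 0.66 without ethanol and −0.14, −0.33 and 0.02 with it. Every 6.5% array lay below every 0% array, as for 14.0% of all features, and the change of −0.73 ± 0.27 was not called (adjusted p = 0.101 by limma). With the trend removed it was −0.44 (95% interval −1.10 to 0.23). SPS100, its paralogue, which acts in spore wall formation, read 0.11, 0.42 and −0.25 in the 0% cultures and 1.31, 2.36 and 1.47 in the 6.5% cultures, and rose by 1.63 ± 0.36 (adjusted p = 0.0267 by limma). SPS100 lost its call on leaving out 0% culture 2, 0% culture 3, 6.5% culture 2 or 6.5% culture 3 (adjusted p up to 0.111 by limma).

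Of 8 genes of respiratory growth and mitochondria, RGI1 and OM14 rose. RGI1, which is needed for normal energy metabolism when cells respire, read −0.37, 0.40 and −0.08 without ethanol and 2.61, 3.42 and 3.55 with it. It rose by 3.21 ± 0.26 or 9.25-fold (adjusted p = 0.00499 by limma) and had the 9th largest increase of all features. RGI2, its paralogue, read 2.69, −0.89 and −0.98 in the 0% cultures and 0.46, −0.999 and −0.84 in the 6.5% cultures. The array of 0% culture 1 stood far above the rest, the change was −0.73 ± 0.47 (adjusted p = 0.304 by limma), and on the other arrays RGI2 differed by 0.02. OM14, an outer membrane protein that receives ribosomes at the mitochondrion, read 0.40, −0.34 and −0.42 without ethanol and 1.81, 1.41 and 1.48 with it. It rose by 1.69 ± 0.24 (adjusted p = 0.00940 by limma).

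The other mitochondrial members were not called. FMP16, a mitochondrial protein of unknown function, was at 1.14 ± 0.36 (adjusted p = 0.0719 by limma), with every 6.5% array above every 0% array, and was called without 0% culture 2. With the trend removed FMP16 was at 0.75. OM45, another outer membrane protein, was at 0.68 ± 0.31, from −0.02 in the swapped pair to 1.03 on the other arrays. AIM17, also found in mitochondria, was at 0.11 ± 0.25 with a 95% interval of −0.48 to 0.69. The paralogues ISF1 and MBR1, linked to mitochondrial function, read −0.36, 0.85 and 1.19 (ISF1) and 0.25, 0.25 and −0.79 (MBR1) in the 0% cultures. In the 6.5% cultures ISF1 read −0.82, 1.11 and 1.17, and MBR1 0.19, 0.07 and −0.05. Both overlapped between groups, with changes of −0.08 ± 0.27 and 0.17 ± 0.33.

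STF1, STF2 and TMA10 rose among the 4 genes around ATP synthase inhibition. STF1 and INH1 code for small proteins that stop the mitochondrial ATP synthase from running backwards and hydrolysing ATP. STF1 read −0.31, −0.60 and 0.48 without ethanol and 1.43, 1.95 and 2.25 with it, and rose by 2.02 ± 0.35 or 4.05-fold (adjusted p = 0.0146 by limma). INH1 read −0.13, −1.32 and −0.28 in the 0% cultures and 0.32, −0.10 and 0.07 in the 6.5% cultures. All INH1 values with ethanol were higher, but its change of 0.68 ± 0.33 was not called (adjusted p = 0.199 by limma), and with the trend removed it was at 0.26. STF2, a factor that stabilises the complex of inhibitor and ATP synthase and also a hydrophilin, read −0.45, 0.23 and −0.0044 without ethanol and 1.14, 1.82 and 2.00 with it. TMA10, its paralogue, which is found with ribosomes, read 0.18, −0.38 and −0.18 in the 0% cultures and 1.53, 2.00 and 2.15 in the 6.5% cultures. The groups were apart for both, and STF2 rose by 1.73 ± 0.24 and TMA10 by 2.02 ± 0.30 (adjusted p = 0.00916 and 0.0101 by limma).

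**Figure D2:**
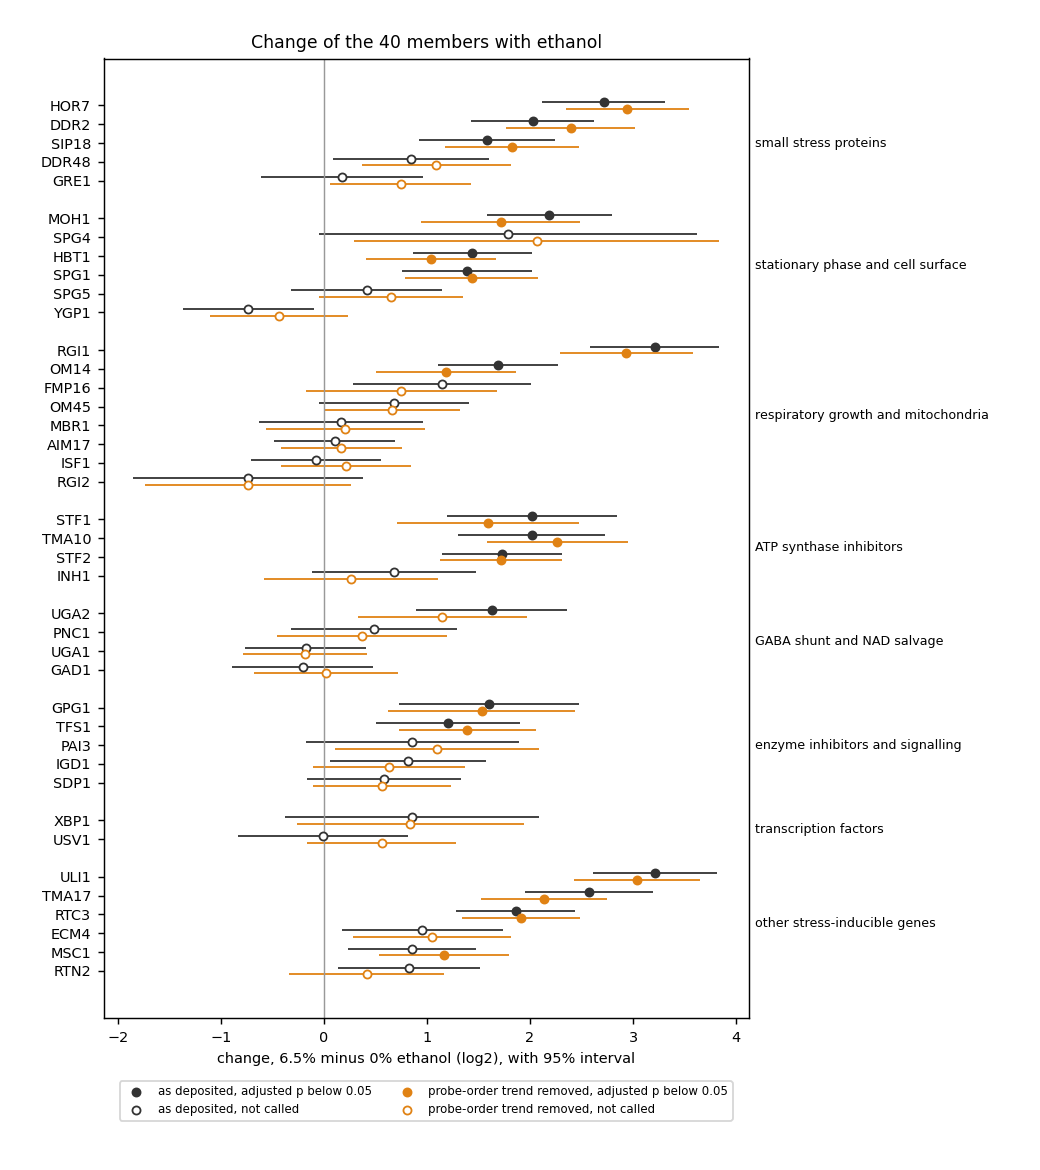
Change of each gene, 6.5% minus 0% ethanol in log2 units, with its 95% interval from limma, as deposited (black) and with the probe-order trend removed (orange). Filled points have an adjusted p below 0.05. As deposited, RGI1 and ULI1 lie furthest right at 3.21, and YGP1 furthest left at −0.73, next to RGI2. With the trend removed RGI2 lies furthest left, at −0.74. UGA2 was called only as deposited and MSC1 only with the trend removed.

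Of the enzymes of the GABA shunt, a route from glutamate to succinate that is linked to oxidative stress tolerance, the last one rose. UGA2, succinate semialdehyde dehydrogenase, read 0.71, −2.46 and −1.85 without ethanol and 2.23, −0.81 and −0.13 with it. The swapped arrays read high in both groups, so the groups overlapped, while within orientations UGA2 was 1.52 and 1.68 higher. It rose by 1.63 ± 0.31 (adjusted p = 0.0180 by limma), but with the trend removed it was at 1.15 and not called (adjusted p = 0.0718 by limma). GAD1, glutamate decarboxylase and the first enzyme, read −0.24, 0.66 and 1.37 in the 0% cultures and −0.62, 0.98 and 0.81 in the 6.5% cultures. UGA1, the GABA transaminase, read −0.05, −0.40 and −0.23 without ethanol and −0.33, −0.27 and −0.60 with it. Both overlapped, with changes of −0.21 ± 0.29 for GAD1 (95% interval −0.89 to 0.47) and −0.18 ± 0.25 for UGA1 (95% interval −0.77 to 0.41), each below 2-fold in either direction. PNC1, the nicotinamidase of NAD salvage, was at 0.49 ± 0.34 and was not called.

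GPG1 and TFS1 rose among 5 enzyme inhibitors and signalling genes. GPG1, a proposed subunit of the glucose-sensing G protein, read −0.45, −0.59 and −0.14 without ethanol and 0.18, 1.58 and 1.85 with it. It rose by 1.60 ± 0.37 (adjusted p = 0.0299 by limma), with the swapped 6.5% array the lowest of its group. TFS1, which inhibits the vacuolar carboxypeptidase Y and the Ras regulator Ira2, read 0.09, 0.53 and 0.60 in the 0% cultures and 0.84, 2.29 and 1.72 in the 6.5% cultures. It rose by 1.21 ± 0.29 (adjusted p = 0.0347 by limma), the smallest change that was called. PAI3, the inhibitor of the vacuolar proteinase A, read −0.99, 0.99 and 0.76 without ethanol and −1.33, 2.71 and 1.96 with it. PAI3 was low on both swapped arrays, and its change of 0.86 ± 0.44 was not called (adjusted p = 0.209 by limma). Without the swapped arrays PAI3 was called, at 1.46 (adjusted p = 0.0372 by limma). IGD1, an inhibitor of the glycogen debranching enzyme, was at 0.81 ± 0.32 and SDP1, a phosphatase of the cell integrity kinase Slt2, at 0.58 ± 0.32, neither with a call.

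Neither transcription factor of the list was called. XBP1, a repressor that is induced by stress and starvation, read 0.53, −0.61 and −0.16 in the 0% cultures and −0.22, 1.56 and 0.97 in the 6.5% cultures. It was lower with ethanol in the swapped pair, by −0.75, and higher on the other arrays, by 1.65, with a change of 0.85 ± 0.52 (adjusted p = 0.283 by limma). Without the swapped arrays XBP1 was called (adjusted p = 0.0271 by limma). USV1, a zinc finger factor of growth on non-fermentable carbon, was at −0.01 ± 0.35 (95% interval −0.84 to 0.82) and at 0.56 with the trend removed.

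Of 6 further stress-inducible genes ULI1, TMA17 and RTC3 rose. ULI1, a gene of unknown function that is induced by the unfolded protein response, read −0.31, 0.80 and 0.40 without ethanol and 2.79, 3.96 and 3.76 with it. The groups were far apart, and it rose by 3.21 ± 0.25 or 9.25-fold (adjusted p = 0.00499 by limma), the 10th largest increase of all features. TMA17, a chaperone of proteasome assembly under stress, read −0.05, −1.81 and −1.53 in the 0% cultures and 2.69, 0.61 and 1.02 in the 6.5% cultures. It rose by 2.57 ± 0.26 or 5.94-fold (adjusted p = 0.00617 by limma). RTC3, which resembles part of a ribosome maturation factor, read −0.11, −0.18 and −0.17 without ethanol and 1.57, 1.89 and 1.67 with it. Both RTC3 groups were tight, and it rose by 1.86 ± 0.24 (adjusted p = 0.00804 by limma).

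ECM4, a glutathione transferase, was at 0.95 ± 0.33 (adjusted p = 0.0900 by limma), and lay above 0 in both dye orientations. MSC1, of unknown function, was at 0.85 ± 0.26 (adjusted p = 0.0662 by limma) and was called with the trend removed, at 1.17 (adjusted p = 0.0337 by limma). RTN2, a reticulon that bends membranes of the endoplasmic reticulum, was at 0.82 ± 0.29 (adjusted p = 0.0949 by limma), and at 0.42 with the trend removed. MSC1 and RTN2 were also above 0 in both orientations. Over the 23 members without a call, the upper end of the 95% interval lay below a 2-fold increase for 9 and reached it for 14.

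The changes of related genes of the list were set side by side. With 3 arrays against 3 the exact permutation test cannot decide whether they moved unequally, since its smallest two-sided p is 0.1. Over 9 pairs tested, the smallest p was reached by RGI1 against RGI2, whose changes differed by 3.94 log2 units, and by STF1 against INH1, which differed by 1.34 (exact p = 0.1 and Benjamini-Hochberg p = 0.45 for both). The difference of RGI1 and RGI2 was 5.21 in the swapped pair and 3.31 on the other arrays. That of STF1 and INH1 was 1.29 and 1.37. SIP18 rose by 1.40 more than GRE1 changed (exact p = 0.2), and HOR7 by 0.69 more than DDR2 (exact p = 0.2). STF2 and TMA10 differed by −0.29 (exact p = 0.5), and ISF1 and MBR1 by −0.24 (exact p = 0.9). In the GABA shunt UGA2 changed by 1.80 more than UGA1 (exact p = 0.3) and by 1.83 more than GAD1 (exact p = 0.5), and GAD1 and UGA1 differed by −0.03 (exact p = 1.0). The difference of UGA2 and UGA1 was 1.80 in the swapped pair and 1.81 on the other arrays, and that of UGA2 and GAD1 1.90 and 1.80. The permutation takes no account of dye orientation, which spread the UGA2 values within each group.

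The swapped pair and the other arrays did not give the same size of change. The median change of the 40 genes was 0.67 in the swapped pair and 1.32 on the other arrays, against −0.04 and 0.01 over all features. Both orientations were above 0 for 25 genes, against 33.0% of all features. For 12 genes the swapped pair was lower with ethanol while the other arrays were higher, against 17.7% of all features; SPG4, XBP1 and RGI2 were furthest apart. The interaction of dye orientation with ethanol was called for 0 of the 40 genes and for 0.473% of all features by limma, on 2 residual degrees of freedom. The dye term itself was called for 12 of the 40 genes, against 34.0% of all features. Its part in the changes was not tested, beyond the values within each orientation.

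**Figure D3:**
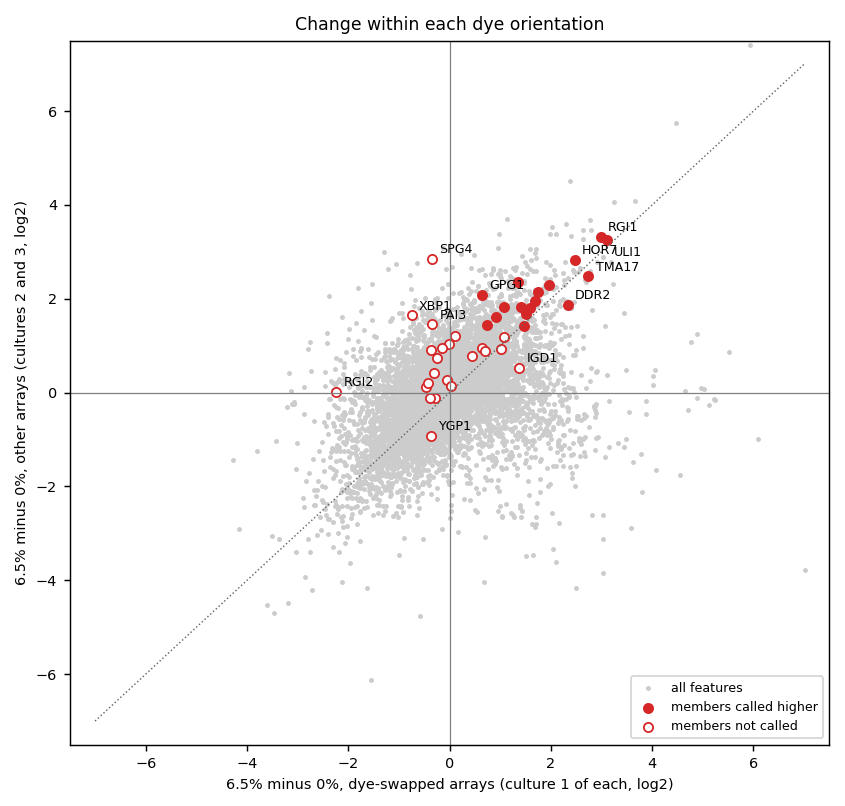
Change with ethanol (log2) in the dye-swapped pair on the horizontal axis and on the other arrays on the vertical axis, for all features (grey) and the 40 genes (red; filled where called higher). The dotted line marks equal change. All filled points lie above 0 on both axes, and SPG4 lies at −0.36 and 2.86.

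On the chromosomes of the RefSeq assembly R64, DDR48, PAI3 and SIP18 are direct neighbours on chromosome XIII, where 9 of the 40 genes lie. Their changes were 0.85, 0.86 and 1.58. HOR7 lies on the same chromosome with 1 gene between it and GAD1, and these changed by 2.71 and −0.21. Next to the 17 genes that rose lie 27 measured genes outside the list, of which 2 rose and 3 fell, with a median change of 0.12. Next to the members without a call lie 35 such genes, of which 2 rose and 3 fell, with a median of −0.15. Over all features 7.69% rose and 10.4% fell, with a median of 0.04, and no difference of the neighbours from these was tested.

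Among other stress genes, a list of 61 chaperone, storage sugar and redox stress genes had 32 higher and 0 lower, with a median change of 1.06. All features gave 7.69% higher, as above, and this list too was chosen with earlier results of these data known. The count was 22 with culture number as a block (3.94% of all features higher) and 18 with block and trend removal (2.71%). It was 13 with arrays at equal spread (1.64%), 5 without the dye term (0.583%) and 2 without 6.5% culture 2 (0.0315%). Those 2 were HSP12 and HSP26, the only features called in that fit. HSP12 and HSP26, on which the direction rests, belong to this list. Its largest increases were those of HSP12, a small membrane-associated stress protein (at least 6.92, since its 6.5% arrays read the table's limit of 6.64), TDH1, a glyceraldehyde-3-phosphate dehydrogenase isozyme, and HSP26, a small heat shock protein, at 5.33 ± 0.33 (adjusted p = 0.00246 by limma). TDH1 rose by 5.58 ± 0.97 (adjusted p = 0.0147 by limma), but its value of −4.61 in 0% culture 1 was one that 19 probes shared as the lowest of that array. The change of TDH1 was 9.02 in the swapped pair and 3.86 on the other arrays, where it lay below HSP31, a stress-induced glyoxalase, at 4.06, and the interaction with dye orientation was called (adjusted p = 0.0337 by limma).

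Of 39 measured stress regulators 2 rose and 3 fell, where 7.69% of all features rose and 10.4% fell. The median change of the regulators was 0.01 as deposited and 0.29 with the trend removed. PCL5, a cyclin that directs breakdown of the activator Gcn4, rose by 2.18 ± 0.36, and RIM15, the kinase that promotes entry into quiescence, by 0.99 ± 0.27 (adjusted p = 0.0130 and 0.0491 by limma). PDE2, which degrades cyclic AMP, fell by 1.60 ± 0.29, RAS1, a GTPase that activates its synthesis, by 1.33 ± 0.24, and PHO85, a cyclin-dependent kinase of nutrient signalling, by 1.08 ± 0.29 (adjusted p = 0.0163, 0.0167 and 0.0441 by limma). With the trend removed PCL5 and PDE2 were called and RIM15, RAS1 and PHO85 were not. With culture number as a block RIM15 (adjusted p = 0.0941 by limma) and PHO85 (adjusted p = 0.0810 by limma) were not called. MSN2 and MSN4 were at −0.80 ± 0.29 and −0.62 ± 0.25, without a call (adjusted p = 0.0965 and 0.127 by limma). Among 24 partners and paralogues of the members, which include the targets of the inhibitors, SPS100 alone was called as deposited. The list median was 0.16, and the shares over all features are the same as for the regulators. PEP4, the proteinase A that PAI3 inhibits, was at 0.68 ± 0.25 and was called higher with the trend removed, at 1.23 (adjusted p = 0.0315 by limma). GPA2, a subunit of the glucose-sensing G protein, was at −1.03 and was called lower with the trend removed, at −1.31 (adjusted p = 0.0295 by limma).

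**Figure D4:**
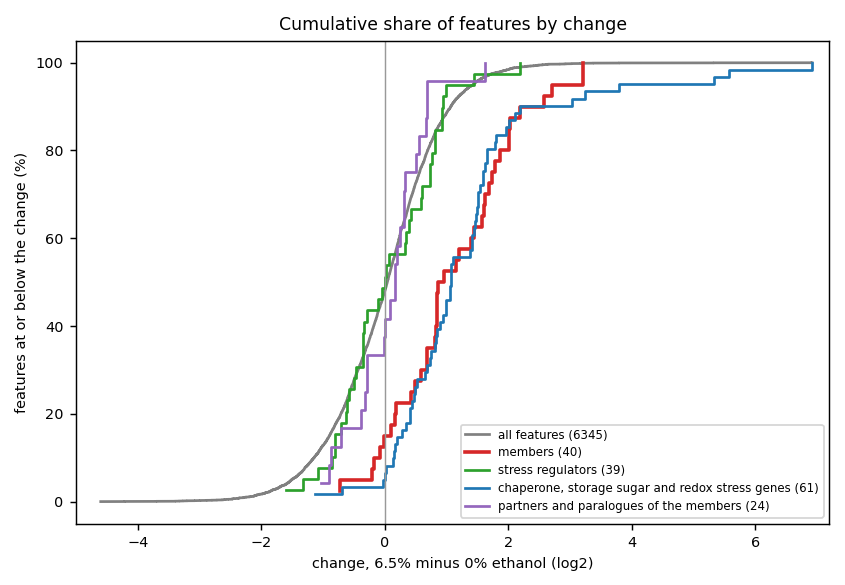
Cumulative share of features (percent, vertical) by change with ethanol (log2, horizontal) for all features, the 40 genes and the 3 other lists. The median is 0.91 for the 40 genes and 1.06 for the chaperone, storage sugar and redox list, against 0.01 for the regulators, 0.16 for the partners and 0.04 for all features.

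**Figure D5:**
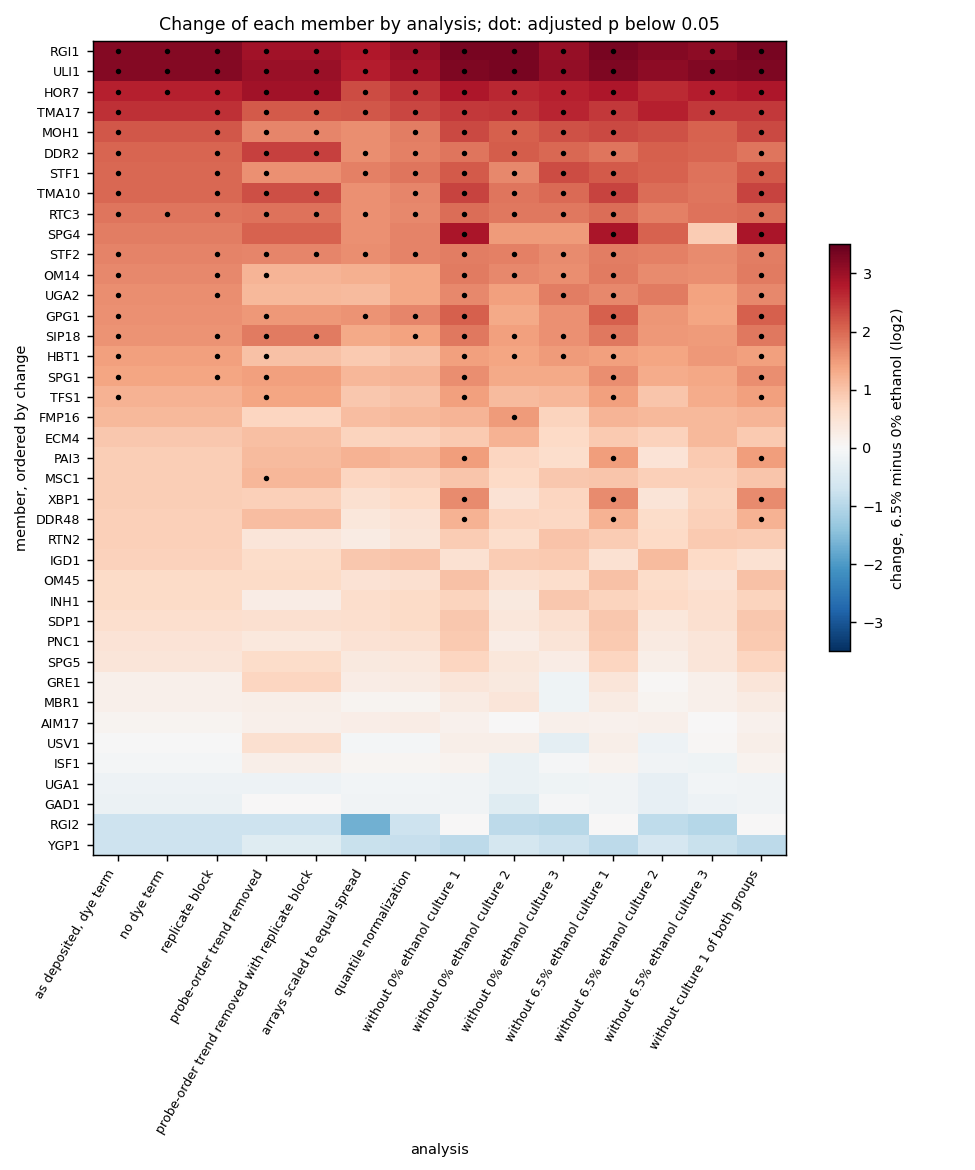
Change of each gene (colour, log2) in 14 analyses (columns), which do not include arrays left out after trend removal, with the genes ordered by change and a dot where the adjusted p was below 0.05. RGI1, ULI1 and HOR7 carry a dot in every column shown except the one without 6.5% culture 2, in which no gene does.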

How the data were processed

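The authors deposited 1 table of log2 ratios for 6368 probes on 6 arrays. From the values they are bounded at 6.64 on both sides, the log2 of a ratio of 100. No source used here gives the scanner, background correction, normalization or direction. Signal over background is unknown, and what limits the precision was not tested.

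Ratios of the dye-swapped arrays were multiplied by −1. Probes were named from the platform annotation and updated by gene identifier through RefSeq R64: 5673 had 1 gene, all matched, 0 had several and 695 had none. For 23 genes several probes were averaged. limma 3.58.1 in R 4.3.3 was fitted over all 6345 features as 6.5% minus 0% with a dye term (3 residual degrees of freedom), and was checked on simulated data. The trend along the probe number was removed with lowess (span 0.1, 3 iterations).

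Deviations from the group means correlated across features at 0.70, 0.48 and 0.43 between equal culture numbers, for numbers 1 to 3. Number 1 of both groups is the dye swap, which also shifts the group means, and unequal numbers were not compared. After the dye term the correlations were −1, −0.28 and −0.29. The −1 is fixed by the fit, since the residuals of the swapped arrays must cancel, and the fit also constrains the others. These values therefore cannot show whether equal numbers were paired. Every member is accounted for. Array values were planned for the 20 largest called changes, called decreases and related pairs, and added after the values were seen for YGP1, SPG4, DDR48, PAI3 and XBP1; MSN2, MSN4, PEP4, GPA2 and HSP31 were also chosen then. Of each other list up to 3 called genes in each direction were named, with HSP12 and HSP26. The members and lists were chosen with earlier results of these data known.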

Additional observations from a re-analysis of the deposited data

How the results depend on the processing

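The 40 genes had 17 calls. This count was 4 without the dye term, 9 with arrays scaled to equal spread and 10 with the trend removed and the replicate block. It was 12 after quantile normalization, and 23 for the 6.5% arrays against the pool alone, which leaves out the 0% arrays. Of all 6345 features, 484 and 2542 were called in these settings, in both directions together. The replicate block alone gave 15, and changed no call of the 40 genes other than GPG1 and TFS1. With 1 array left out the calls among the 40 genes ranged from 0 (without 6.5% culture 2) to 21. With the trend also removed, a combination chosen after seeing the data, the calls ranged from 0 to 22. The median change of the 40 genes, 0.91 with all arrays, ranged from 0.90 to 1.32 with 1 array left out. With the trend also removed it ranged from 0.90 to 1.33. With green over red it would be −0.91, with 0 higher and 17 lower, and every other sign would turn as well. Over all features 1150 were called, against 78 without the dye term, 607 with the replicate block, 390 with block and trend removal, 313 with equal spread, 484 after quantile normalization and 2542 for the 6.5% arrays against the pool alone. With 1 array left out this count lay between 2 and 1253, and with the trend removed it was 0 without 6.5% culture 2, 16 without 6.5% culture 3, 216 and 381 without 0% culture 2 or 3, and 1104 without the swapped arrays. Fewer arrays leave fewer degrees of freedom, and the cause of these shifts was not tested. Genes without a call changed sign in some analyses. ISF1 was at 0.21 with the trend removed, with or without block, 0.062 at equal spread, 0.075 after quantile normalization, 0.16 against the pool and up to 0.11 from −0.23 with arrays left out. GAD1 was at 0.021 with the trend removed and 0.13 against the pool, and USV1 at 0.56 and 0.32 and from −0.35 to 0.21 with arrays left out. With arrays left out RGI2 ran from −0.99 to 0.016, GRE1 from −0.14 to 0.41 and MBR1 from −0.16 to 0.43. Leaving out either swapped array alone gives the fit without both, since the dye term then absorbs the other.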
